A study of Mus musculus with 9 samples.

Results

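Islet-1 knockout retinal organoids of the mouse (Isl1KO) were compared with wild type organoids (WT) on days 10, 16 and 23 of differentiation (written DD10, DD16, DD23). The comparison rests on 6 of the 9 arrays of the series, those whose labels name the Islet-1 knockout or the wild type genotype, with 1 array for each line and day. Retinal organoids are retina-like tissues grown from ES or iPS cells in floating culture. The remaining 3 arrays hold a Bhlhb4 knockout line (B4KO; the gene is now named Bhlhe23), whose values are given beside some results. Both knockouts were made to obtain organoids with fewer bipolar cells, and no treatment set the groups apart. The wild type line carries the label NCT. Each sample pooled 5 organoids, so a value is an average over those organoids and over all their cells. Where the Isl1 gene was cut, and how many clones each line represents, are not given in the sources used here.

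Isl1 encodes a LIM homeodomain transcription factor, a protein that binds DNA through its homeodomain and partner proteins through its LIM domains. In the retina it is made by ganglion cells, the neurons that send axons to the brain, by cholinergic (starburst) amacrine cells, and by bipolar cells of the ON pathway, which relay photoreceptor signals. In ganglion cells it acts together with Pou4f2, downstream of Atoh7, on genes of axon growth and neuronal structure. In ON bipolar cells it acts on genes of maturation, among them Bhlhe23.

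Of the gene spots, 59.5, 57.3 and 65.6% were well above background on the WT arrays and 64.2, 65.2 and 67.8% on the Isl1KO arrays at DD10, DD16 and DD23, and 0 were saturated. All 6 arrays lay on 1 slide, with Isl1KO in one row and WT in the other, so row and line cannot be told apart. Of 13 retinal markers, 11 were well above background on every array; Nrl and Rcvrn, of photoreceptors, were not on all. Markers of other cells were also present. Emx2 and Tbr1 of the forebrain, Tyr, Mitf and Best1 of pigment cells and 3 of 4 pluripotency markers were above background on all 6 arrays, whereas the pigment epithelium marker Rpe65, the muscle markers Myog and Ckm and the globin Hbb-bt were so on none. With 1 array for each line and day, the spread behind every standard error is the departure of the 3 daily differences from their mean. A difference on one day alone rests on 1 array of each line, with no replicate; whether a day departed from the others could be tested only with 1 residual degree of freedom. In RNA from whole organoids, fewer cells of a type and less RNA per cell cannot be told apart.

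Values are log2 signal relative to the 75th percentile of the same array, so 0 is that percentile, and levels of different probes are not compared. The results turn on a few probes, of which the first 30 of 60 bases are printed, with the coordinates of the array design (build mm9). The files do not say in which exon or intron a probe lies. The pair of Isl1 probes is shown because they gave different readings, and the others because their genes carried the largest differences described below.
Isl1, first (5′) probe, chr13:117099604-117099663, minus strand: atttcactgtggacattactccctcttaca
Isl1, second (3′) probe, chr13:117088774-117088833, minus strand: cccccaaagatgtgtatagttattggttaa
Vax2os, chr6:83652173-83652232, minus strand: taatgggactgacggcaagaaagtatccca
Sema3a, chr5:13602449-13602508, plus strand: tcattgcatttcagatgggaactagaaaac
Irx5, chr8:94884923-94884982, plus strand: tatggagatggatggcataaaaatgtatac
Nefl, chr14:68705725-68705784, plus strand: gcatggtccatgcttatgagttcaggatct
Slc18a3, chr14:33275627-33275686, minus strand: aaacttggtctactacaccctggtgcctcc
Hoxb8, chr11:96146576-96146635, plus strand: ttctgttgtctgcgcctgaaaagggcggaa
No capitals are used here because no base of a probe is singled out.

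Isl1 itself gave a signal well above background on all 6 arrays, so transcript from the gene was measured in the knockout line. The first probe read -0.60, 1.45 and -0.051 in WT at DD10, DD16 and DD23, and -1.24, -0.44 and -1.63 in Isl1KO. It was lower in Isl1KO on each day, by 1.57, 3.69 and 2.99 times, and the WT maximum at DD16 was much lower in Isl1KO, but the ranges of the lines overlapped. The mean difference was -1.37 (SE 0.27, 3 pairs of arrays; unadjusted p = 0.0055, adjusted p = 0.46), which did not pass the threshold. The second probe lies 10830 bases further downstream on the transcribed strand and read -1.25, 0.85 and -0.66 in WT against -0.88, 0.096 and -0.92 in Isl1KO. Its mean difference was -0.21 (SE 0.24, adjusted p = 0.85 in a fit with each probe as its own feature), with a higher reading in Isl1KO at DD10 and lower ones at DD16 and DD23. The sources used here do not say whether either probe lies inside the deleted part, so neither reading checks the knockout.

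Bhlhe23, a bHLH repressor of rod bipolar cells, read -3.20, -2.82 and -4.55 in WT and -2.95, -4.55 and -6.56 in Isl1KO. It was higher in Isl1KO at DD10 and lower on the later days, by 3.31 times at DD16 and at least 1.80 times at DD23, where the Isl1KO array was not well above background. The mean difference of -1.16 (SE 0.49, adjusted p = 0.62) did not pass the threshold.

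**Figure D1:**
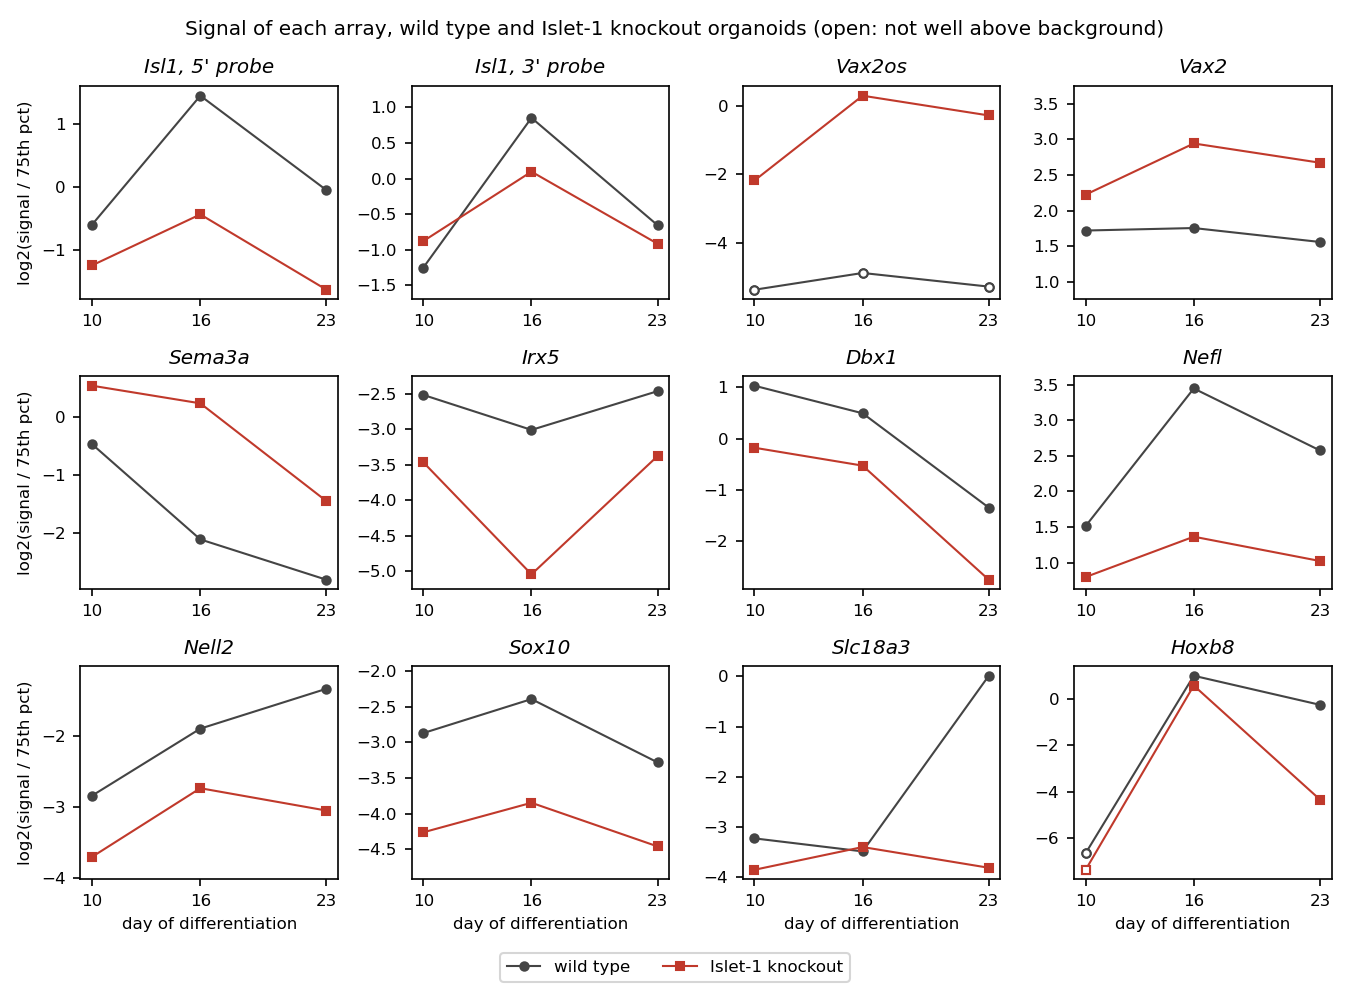
Log2 signal relative to the 75th percentile of the array (vertical axes, each panel with its own scale) against day of differentiation for 12 probes; grey circles are the 3 WT arrays, red squares the 3 Isl1KO arrays, and open marks are values not well above background. Vax2os, Vax2 and Sema3a lay higher and Irx5, Dbx1, Nefl, Nell2 and Sox10 lower in Isl1KO on all 3 days, while Slc18a3 and Hoxb8 differed mainly at DD23.

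The lines were compared over 23120 genes with limma, each day forming a pair, and p-values were adjusted over all genes by Benjamini and Hochberg's method. An adjusted p under 0.05 was found for 3 genes (0.013%), all of them higher in Isl1KO and none lower. At an unadjusted p under 0.05 there were 764 higher (3.3%) and 1210 lower (5.23%). Cdkn1c, an inhibitor of cyclin-dependent kinases expressed from the maternal chromosome, read -1.41, -1.30 and -2.31 in WT and 5.70, 5.44 and 4.38 in Isl1KO, in day order. Each Isl1KO array lay far above each WT array, and Cdkn1c rose 116-fold (log2 difference 6.85, SE 0.12, adjusted p = 0.0036). Mirg, a maternally expressed non-coding RNA, rose 20.0-fold at DD16 and 18.8-fold at DD23. At DD10, where the WT array was not well above background, Mirg rose at least 14.1-fold. Its adjusted p of 0.0059 came from the fit to the values as measured. The third is an unnamed transcript with a probe at chr12:110897958-110898017 that was well above background on 1 of 3 WT arrays. It rose, by at least 7.64, 26.9 and 27.6-fold at DD10, DD16 and DD23 with dim WT values raised to the lowest signal well above background. Its adjusted p of 0.0036 came from the fit to the values as measured, dim WT readings included. With normexp background correction the adjusted p was 0.0583. All 3 come from imprinted regions, in which Meg3 (difference 5.69) and Rian (4.24) were also higher on every day without passing. Without DD16 or without DD23 no gene passed; without DD10 there were 6, and with a model of all 9 arrays only Cdkn1c passed.

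Of 19579 genes well above background on all 6 arrays, 10 (0.0511%) differed at least 2-fold in one direction on every day. Among them were Sema3a, higher in Isl1KO, and Slc15a2, Sox10 and Dbx1, lower. The median difference over all genes tested was 0.0075, and 16.9% of them were higher and 14.8% lower on all 3 days.

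**Figure D2:**
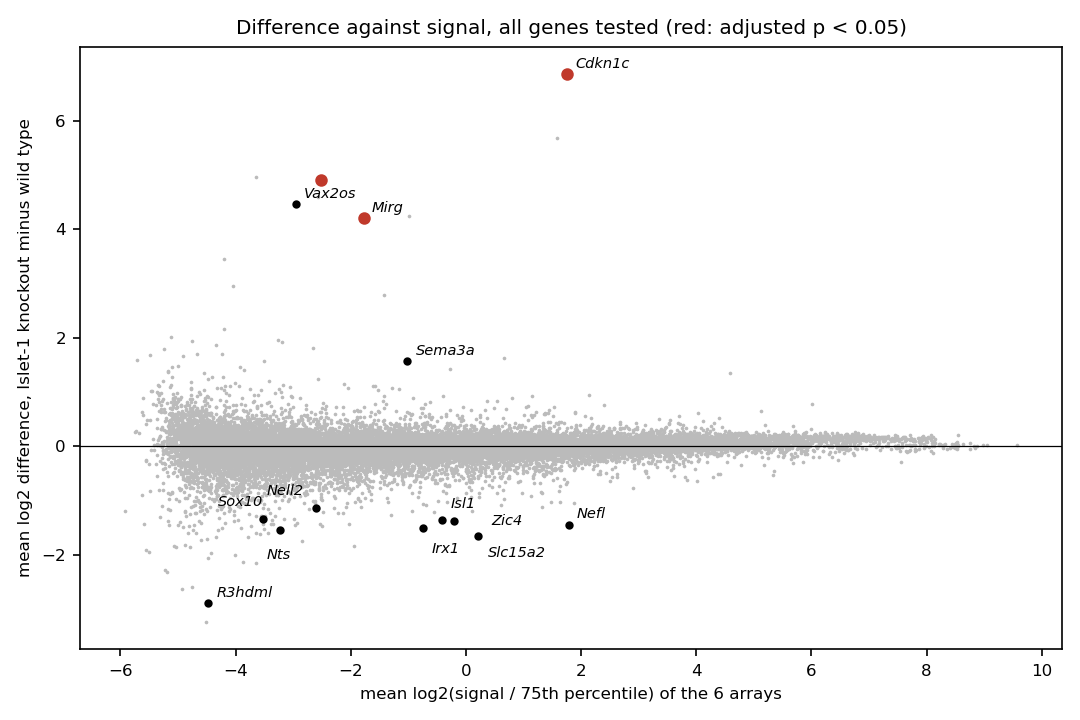
Mean log2 difference, Isl1KO minus WT (vertical axis), against the mean log2 signal relative to the 75th percentile over the 6 arrays (horizontal axis), 1 grey point for each of 23120 genes; red points passed the adjusted threshold and black points are genes named in the text. Cdkn1c stood highest at 6.85, and Sema3a lay above the cloud of genes of like signal while Nefl, Slc15a2 and Irx1 lay below it.

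Of 12 forebrain genes, 11 lay below 0 on average, with a median of -0.43. At DD10 Emx2, Emx1 and Tbr1, of the dorsal forebrain, lay 2.24, 2.09 and 2.15 times lower in Isl1KO.

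Vax2os, a non-coding RNA beside the ventral optic cup gene Vax2, was, by its brightest probe, well above background on all 3 Isl1KO arrays and on no WT array. The probe read -5.38, -4.89 and -5.29 in WT, at background, and -2.18, 0.30 and -0.28 in Isl1KO. By this probe it was at least 14.4-fold higher (measured means -5.19 and -0.72, adjusted p = 0.35). The bound was 5.05-fold on the first day, 22.9-fold on the second and 26.0-fold on the last. All 3 of its probes were higher in Isl1KO, with mean differences from 1.12 to 5.40. The lowest came from a probe that was well above background on 5 of the 6 arrays and differed by 0.38, 1.66 and 1.33, well under the bound of the brightest probe.

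Vax2, the homeobox gene of the ventral retina next to it, went the same way. It read 1.72, 1.75 and 1.56 in WT and 2.22, 2.94 and 2.67 in Isl1KO, with no overlap between the lines, and a mean difference of 1.91-fold (SE 0.17, adjusted p = 0.43). Among 18 genes of the dorsal-ventral and nasal-temporal axes of the eye, 11 were higher and 7 lower, with a median of 0.097. Those of the dorsal side, Tbx5 (-0.0089), Bmp4 (-0.41) and Aldh1a1 (-0.24), lay near or below 0. Aldh1a3, the retinoic acid enzyme of the ventral side, read -0.80, -4.11 and -5.58 in WT and -0.19, -2.27 and -5.26 in Isl1KO and differed most at DD16, where it was 3.58 times higher.

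Sema3a, a secreted repellent of growing axons, read -0.48, -2.11 and -2.81 in WT and 0.53, 0.23 and -1.46 in Isl1KO. It declined from day to day in both lines and was 2.01, 5.08 and 2.56 times higher in Isl1KO. All 3 probes of the gene were higher on each day (mean differences 1.23 to 1.76), but the ranges of the lines overlapped and the adjusted p was 0.43.

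The 15 genes with the largest differences upward on all 3 days, ranked by their least different day, included Sema3a and the 13 genes described here, whose differences were smaller. Bmpr1b, a BMP receptor, was 1.45, 1.08 and 0.61 higher on the log2 scale at DD10, DD16 and DD23, and Tnfaip6, a hyaluronan-binding protein, 1.65, 0.65 and 0.92. Zfp783 was 2.16-fold, Capn11, a calpain protease, 1.89-fold, Rec8, a meiotic cohesin subunit, 1.86-fold, and Emilin2, a matrix glycoprotein, 1.71-fold higher on average. Cd99, Aktip, Muc2, Nkx1-1, Trf, the transferrin gene, and Cpne8 completed them with means between 1.51 and 1.69-fold, together with Igf2os (1.71-fold), an antisense RNA of the imprinted gene Igf2. Adjusted p-values of these 13 genes lay between 0.38 and 0.46. Rec8 had a second probe, at background on all 6 arrays.

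Among the 15 genes ranked in the same way downward, Slc15a2, a peptide transporter, read -0.061, 0.95 and 2.21 in WT and -2.26, -0.43 and 0.83 in Isl1KO, 3.15 times lower on average (SE 0.20, adjusted p = 0.39). It was higher at each later day in both lines and lower in Isl1KO by 4.58, 2.61 and 2.61 times. All 7 probes averaged lower, from -2.10 to -0.088, but some of them were at background on every array. Another probe, well above background on all 6 arrays, read nearly alike in both lines (0.030, -0.10 and -0.19).

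Sox10, of neural crest and oligodendrocyte precursors, read -2.87, -2.39 and -3.28 in WT and -4.26, -3.85 and -4.46 in Isl1KO. The lines did not overlap, and the difference was 2.63, 2.75 and 2.27 times (SE 0.10, adjusted p = 0.19). B4KO differed from the same WT arrays by -1.37. Dbx1, a homeobox gene of neural progenitors, read 1.03, 0.49 and -1.35 in WT and -0.18, -0.53 and -2.76 in Isl1KO and was 2.32 times lower (SE 0.11, adjusted p = 0.27). Its signal was lower at each later day in both lines, and the ranges of the lines overlapped.

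Iroquois homeobox genes, which pattern the retina and mark subsets of ganglion and bipolar cells, were lower on average for all 6 members. Irx1 read -0.12, 0.23 and -0.068 in WT and -0.89, -1.36 and -2.22 in Isl1KO, so it was steady in WT and further below it on each later day in Isl1KO, by 1.71, 3.01 and 4.45 times, with no overlap of the lines. Irx5 read -2.52, -3.01 and -2.47 in WT and -3.47, -5.04 and -3.38 in Isl1KO, also with no overlap, and its largest difference, 4.08 times, was at DD16. Irx2 was 1.12 times lower at DD10, 3.09 at DD16 and 5.76 at DD23, and Irx3 1.94 times lower on average. Irx4 was higher at DD10 (1.09) and lower afterwards (-2.16 and -1.20), and Irx6 was lower on all days with a mean of -0.67. Adjusted p-values of the 6 genes lay between 0.46 and 0.79. In B4KO the same genes differed from WT by -0.66 (Irx1), 0.25 (Irx2), -0.13 (Irx3), -0.30 (Irx4), -0.31 (Irx5) and 0.27 (Irx6); the WT arrays are shared.

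Among the other genes of the 15, Nts, the neuropeptide neurotensin, differed by -2.09, -1.64 and -0.91 and Zic4, a zinc finger factor, by -0.82, -1.08 and -2.25. Of the 5 Zic4 probes, 1 was higher in Isl1KO at DD10 and DD16 (0.071 and 0.43). Syt13, of the synaptotagmin family, was 2.29 times lower, Smim18 2.06 times, Masp1, a protease of the lectin complement pathway, 1.97 times, Nrros 1.88 times and Vgf, a secreted neuropeptide precursor, 1.77 times. A second Masp1 probe, well above background on all 6 arrays, averaged -1.07, and its other probes were dim on some or all arrays. Clec4g was 1.66 times lower, and its second probe, well above background on 1 of 6 arrays, averaged higher (0.90).

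Genes of ganglion cell differentiation were lower as a group. Of 32 tested, 30 were lower on average and 2 higher (Gal and Jam2), 23 were lower on all 3 days (14.8% of all genes) and none was higher on all days. The median was -0.51 against 0.0075 for all genes. At an unadjusted p under 0.05, 15 were lower (5.23% of all genes) and 0 passed after adjustment. For 5 of the 32 every WT array lay above every Isl1KO array, as for 1.49% of all genes.

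The neurofilaments, filaments of the axon, were among them. Nefl, the light neurofilament subunit, read 1.51, 3.45 and 2.58 in WT and 0.80, 1.36 and 1.02 in Isl1KO. WT had a peak at DD16 that was much lower in Isl1KO, and the lines did not overlap by this probe. Isl1KO was 1.64, 4.24 and 2.94 times lower (SE 0.28, adjusted p = 0.46). A second Nefl probe, well above background on all 6 arrays, was also lower on each day (-0.75, -1.73 and -1.36), but by it the lines overlapped. Nefm, the medium subunit, followed Nefl with -0.70, -1.99 and -0.46, and Nefh, the heavy subunit, differed at DD10 (-1.22) and hardly at DD23 (-0.0015).

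Nell2, a secreted glycoprotein of ganglion cells, read -2.84, -1.90 and -1.34 in WT and -3.70, -2.74 and -3.05 in Isl1KO. The lines overlapped slightly, and the differences were -0.86, -0.84 and -1.71. Thy1, a surface glycoprotein of ganglion cells, read -3.94, -0.93 and 1.79 in WT and -6.71, -1.56 and -0.32 in Isl1KO. It was at least 2.45 times lower at DD10, where the Isl1KO array was not well above background, 1.54 times lower at DD16 and 4.32 times lower at DD23. Slc17a6, the vesicular glutamate transporter of ganglion cells, differed by -0.92, -0.35 and -1.53, Cntn2, an axonal adhesion protein, by -0.46, -1.26 and -0.89, and Elavl4, an RNA-binding protein, by -0.79, -0.54 and -0.35. Rbpms, an RNA-binding protein used as a ganglion cell marker, was 1.05 times lower at DD10 and 2.58 and 2.12 times later, whereas Sncg was higher at DD10 (0.14) and 3.98 times lower at DD23. Of genes that many neurons express, Tubb3 differed by -0.45, Gap43 by -0.57 and Stmn2 by -0.34 on average.

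By day, the median of the measured genes was -0.64 at DD10, -0.11 at DD16 and -0.82 at DD23, so the list differed least at DD16, although Nefl and Nefm differed most there. At DD23, 9 of 32 were at least 2-fold lower (1.28% of all genes). In B4KO the median of the list was -0.23.

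**Figure D3:**
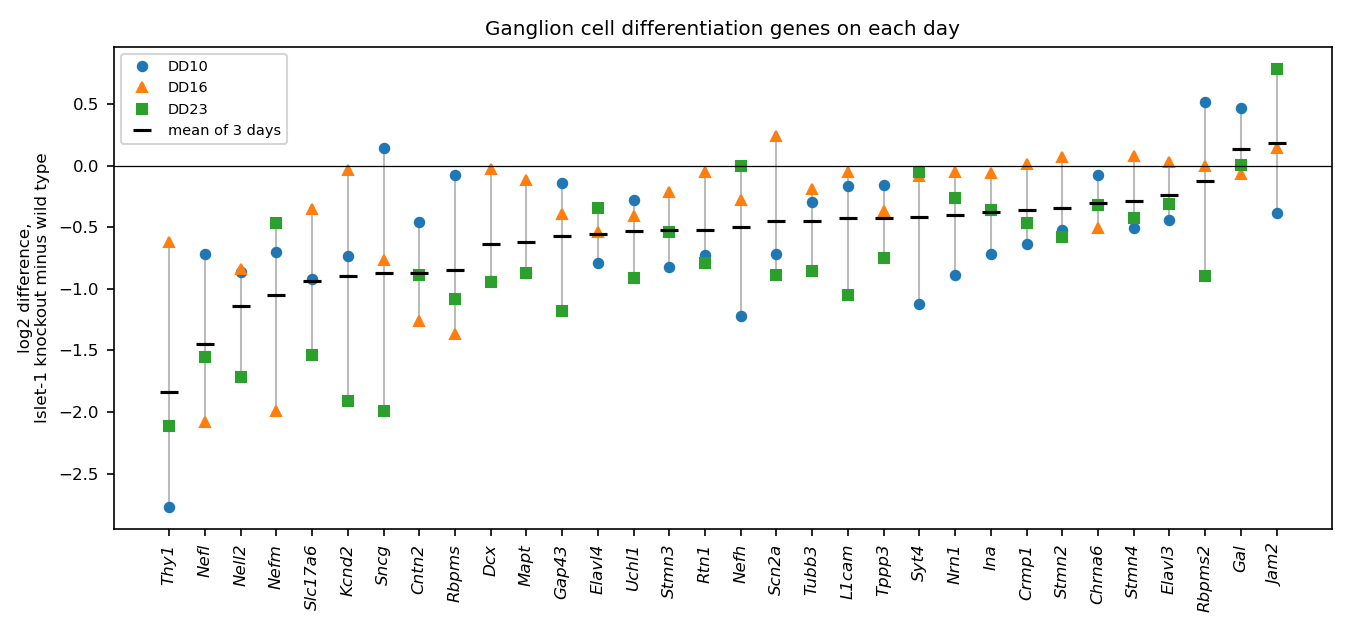
Log2 difference, Isl1KO minus WT (vertical axis), of the 32 ganglion cell differentiation genes tested (horizontal axis, sorted by mean); circles, triangles and squares are DD10, DD16 and DD23, black bars the mean of the 3 days and grey lines the range. All but Gal and Jam2 had a mean below 0, from -1.83 for Thy1, whose DD10 value in Isl1KO was not well above background.

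Transcription factors of the ganglion cell lineage were mixed. Of 31 tested, 22 were lower and 9 higher, with a median of -0.20. The list includes Iroquois genes described above, Irx3, Irx5 and Irx6 among them, so the counts of lower genes are not independent of that result. On all days 11 were lower (14.8% of all genes) and 4 higher (16.9% of all genes). At an unadjusted p under 0.05 there were 8 lower (5.23% of all genes) and 4 higher (3.3%). Atoh7, the proneural factor that makes progenitors competent for the ganglion cell fate, read 3.55, 5.18 and 0.54 in WT and 4.47, 5.28 and 0.22 in Isl1KO. Pou4f2, the POU factor that works with Isl1, read 0.033, 2.03 and -0.37 and 1.14, 2.20 and -0.89. Both were higher in Isl1KO at DD10 (0.92 and 1.10), close at DD16 and lower at DD23 (-0.32 and -0.53). Pou4f1 differed by -0.10 on average and Isl2, the paralog of Isl1, by -0.35.

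Below WT on all days were Ebf1 (-0.26, -0.93 and -2.04), Ebf3 (-0.82, -0.43 and -0.46) and Myt1l (-1.26, -0.34 and -0.84), which act in postmitotic neurons. Above WT on all days were Onecut1 (0.78, 0.29 and 0.48), Onecut2 (0.64, 0.55 and 0.12) and Dlx1 (0.86, 0.25 and 0.51), factors of ganglion, horizontal and amacrine precursors. Onecut3 was well above background on all Isl1KO arrays but only at DD10 in WT, and at least 4.22 and 3.92 times higher at DD16 and DD23.

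Of 20 genes of the LIM homeodomain family and its cofactors, 14 were lower and 6 higher, with a median of -0.087. On all days 8 were lower (14.8% of all genes), and 5 were lower at an unadjusted p under 0.05 (5.23%). Lmx1a (-0.55), Lhx9 (-0.53), Lmo2 (-0.59) and Lmo1 (-0.49) had the lowest means among those lower on every day. Lmo3 was 3.99 times lower at DD23 and within 1.24 times before. Lhx2, of progenitors, differed by -0.034, the cofactors Ldb1 and Ssbp3 by 0.19 and -0.10, and Lhx4 and Lhx3, of bipolar cells and cholinergic amacrine cells, differed by 0.25 and 0.053.

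Of 49 axon guidance genes, 36 were lower and 13 higher (median -0.11), and Sema3a was the only one at least 2-fold higher on any day. Robo3, a receptor for midline guidance cues, was 3.68 times lower at DD16, and the adhesion protein Chl1 2.18 times lower at DD10 and 3.33 times at DD23. Sema3c differed by -0.76, Nrp1, a semaphorin receptor, by -0.45, and Dcc, the netrin receptor, by -0.28, -0.30 and -0.38. Of 20 neuropeptides and growth factors, 13 were lower, 9 of them on all days (14.8% of all genes), and none was higher on all days (16.9%). Scg2, of dense-core granules, differed by -0.69, -0.47 and -0.99 and Sst, somatostatin, by -1.01, -0.66 and -0.38.

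Bipolar genes of the rod and ON pathway, which the knockout lines were made to reduce, had a median of -0.20 over 15 genes, a count that includes Isl1 and Bhlhe23 themselves. There were 12 lower and 3 higher, 5 lower on all days (14.8% of all genes), and 3 lower at an unadjusted p under 0.05 (5.23%), of which 1 is Isl1, the gene knocked out. The others were Trpm1, the channel of ON bipolar cells that pigment cells also express (-0.26, -0.56 and -1.14), and Rgs7, a G protein regulator (-0.73 on average). Several defining genes differed less: Prkca by -0.28, Pcp2 by -0.045, Rgs11 by 0.0049, Cabp5 by -0.052 and Gng13 by 0.32. At DD23 Pcp2 read 4.04 in WT and 4.17 in Isl1KO, and Gng13 2.64 and 2.99. Of 17 OFF and shared bipolar genes, Irx5 and Irx6 among them, 10 were lower and 7 higher (median -0.086).

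Photoreceptor genes were about evenly split in their mean difference. Of 31 genes of phototransduction and the outer segment, 17 were higher and 14 lower, with a median of 0.017. At DD23, 25 of 31 were higher, against 51.5% of all genes measured, with a median of 0.36, and 2 were at least 2-fold higher (0.279% of all genes). Opn1sw, the short-wave cone opsin, read 4.44 in WT and 4.84 in Isl1KO at DD23, Pde6g, a phosphodiesterase subunit of rods, 3.32 and 4.47, and Rom1, of disc rims, 5.29 and 5.65. Photoreceptor precursor genes were split, 8 higher and 6 lower.

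At DD23 the cholinergic amacrine genes were the most reduced of the retinal lists. Slc18a3, the vesicular acetylcholine transporter, read -3.23, -3.49 and 0.014 in WT and -3.85, -3.40 and -3.81 in Isl1KO. The higher WT signal at DD23 had no counterpart in Isl1KO, a 14.2-fold difference between those arrays. Chat, choline acetyltransferase, read -2.97, -3.83 and -1.83 and -2.83, -3.58 and -3.08, 2.38 times lower at DD23. Megf11 and Megf10, receptors that space starburst cells, and Fezf1, a factor of starburst cells, were 4.89, 2.32 and 4.05 times lower at DD23. All 5 genes measured in both lines at DD23 were at least 2-fold lower (1.28% of all genes), while the 4 measured at DD16 were higher, by 0.066 to 0.26. Slc5a7, the choline transporter, was not well above background in either line at DD23 and at least 2.57 times lower at DD16. B4KO read -4.08, -4.22 and -0.12 for Slc18a3 and -6.35, -4.82 and -3.46 for Chat at DD10, DD16 and DD23, and the median of the 6 genes against the same WT arrays was -1.08 in B4KO and -0.86 in Isl1KO.

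Pnoc, the precursor of nociceptin, read -3.29, -3.67 and -1.03 in WT and -3.46, -3.86 and -4.97 in Isl1KO, a 15.3-fold difference at DD23 alone. A test of whether the DD23 difference departed from the other days found no gene past the threshold (1173 of 23120 at an unadjusted p under 0.05), Slc18a3 included (adjusted p = 0.95). The matching test at DD10 found none either, with 1615 at an unadjusted p under 0.05. Each left 1 residual degree of freedom.

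**Figure D4:**
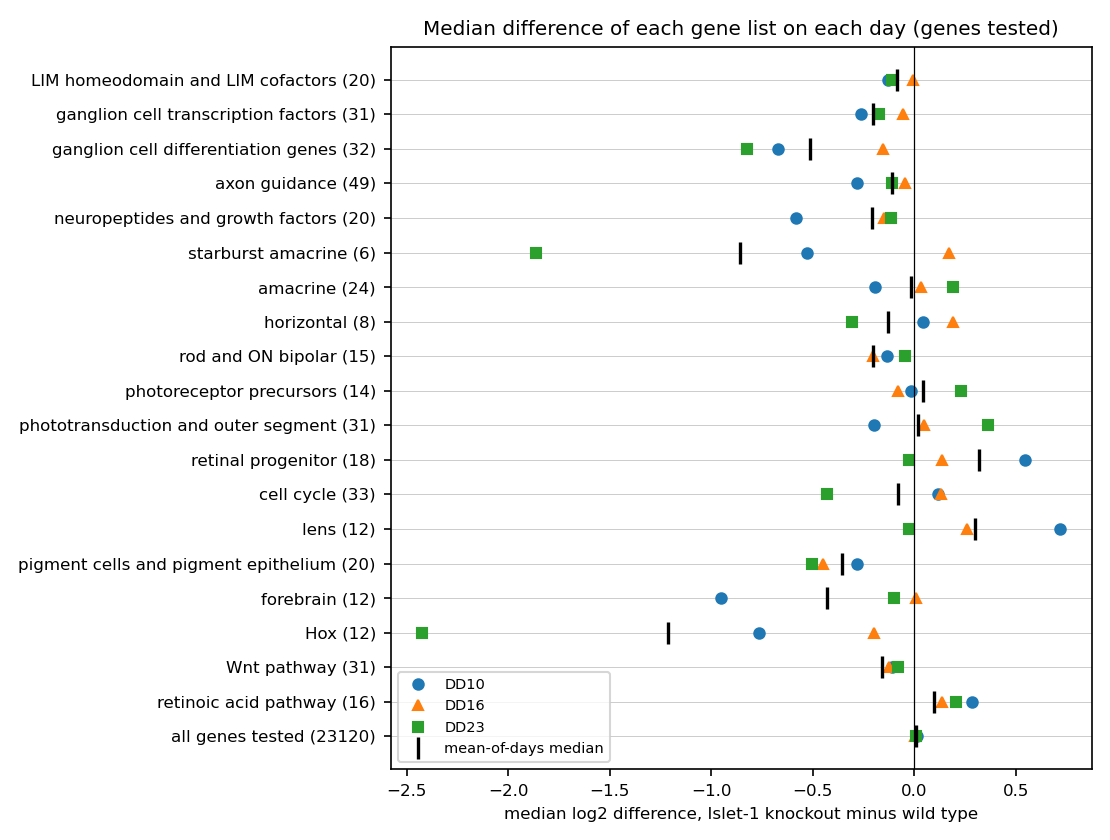
Median log2 difference, Isl1KO minus WT (horizontal axis), of 19 gene lists and of all genes tested, with the number of genes tested in parentheses; circles, triangles and squares are DD10, DD16 and DD23 and the black bar is the median of the mean differences. The medians of all genes lay at 0.013, 0.0024 and 0.0084 on the 3 days, and those of the Hox and starburst lists at DD23 reached -2.42 and -1.86; values not well above background are included in these medians.

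Hox genes, which pattern the hindbrain and trunk, also differed at DD23. Hoxb8 read -6.66, 1.01 and -0.25 in WT and -7.38, 0.58 and -4.34 in Isl1KO. It was at background in both lines at DD10, 1.34 times lower in Isl1KO at DD16 and 17.1 times lower in Isl1KO at DD23. Hoxb7, Hoxb6 and Hoxb5 were likewise at background at DD10 and 11.5, 9.36 and 6.82 times lower at DD23. Of 9 Hox genes measured in both lines at DD23, all were lower (48.5% of all genes measured) and 5 at least 2-fold (1.28%). Their median was -2.77, against -0.27 at DD16. Hox genes are not markers of the retina. B4KO read -6.96, 1.41 and -1.66 for Hoxb8.

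Col3a1, a fibrillar collagen of connective tissue, had the largest difference downward at DD23 among genes outside the imprinted list that have an established symbol and were well above background on both arrays of the day, 28.6-fold. Its brightest probe read -3.27, -5.84 and -0.32 in WT and -5.38, -3.46 and -5.15 in Isl1KO, with WT at background at DD16 and Isl1KO at DD10. A second probe was well above background on 1 array and read -0.87 in WT and -7.38 in Isl1KO at DD16, so the probes disagreed there. The remaining probe was at background on every array. Col1a2 (-2.02), Col1a1 (-1.44) and Dcn (-1.68) were lower beside it at DD23. With Thy1, which is on this list too, 5 of 15 mesenchyme genes were at least 2-fold lower at DD23 (1.28% of all genes). Col6a1 was higher on all days (0.94, 0.83 and 0.33). Among the same genes the largest differences upward were Ccn1, a matricellular protein, 6.41-fold, and Slpi, a protease inhibitor, 6.20-fold. The heat shock genes Hspb1 and Hspa1b were 5.40 and 4.31 times higher and Rpl37, a ribosomal protein gene, 3.70 times. Hspa1a was higher too (1.85), but the 16 genes of the stress and heat shock list had a median of 0.096 at DD23. Of 33 cell cycle genes, 31 were lower at DD23 (48.5% of all genes measured), with a median of -0.43, against 10 lower at DD10 and 8 at DD16. Of all genes measured, 48.3% were lower at DD10 and 51.5% higher at DD23. Genes of the p53 response and apoptosis were lower for 21 of 23 at DD10 and higher for 18 of 22 at DD23. Immediate early genes were lower for 11 of 13 and then higher for 11 of 13, and hypoxia and glycolysis genes higher for 18 of 19 at DD23 (median 0.20). These lists differ between the same arrays as the neuronal genes, and their part in those differences was not tested.

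At DD10 genes of the eye field were higher and genes of the forebrain lower in Isl1KO. Of 18 retinal progenitor genes, 13 were higher in Isl1KO (51.7% of all genes measured), 6 of them at least 2-fold (0.531% of all genes), with a median of 0.55. Six3, an eye field factor, read 1.53 in WT and 2.65 in Isl1KO, Rax 4.23 and 5.28, and Ccnd1, cyclin D1 of retinal progenitors, 2.15 and 3.98. By DD16 the median was 0.14 and by DD23 -0.025. Fgf15, a growth factor of progenitors, was higher on every day (0.74, 0.45 and 0.48). At DD10 6 of 12 forebrain genes were at least 2-fold lower (1.72% of all genes), with a median of -0.95, opposite in sign to the progenitor genes; the part of one in the other was not tested.

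A few transcripts read far higher in WT than in Isl1KO at DD10. Prl3d1, a placental lactogen of trophoblast giant cells, read 1.30, -3.54 and -3.07 in WT and -3.36, -3.49 and -2.89 in Isl1KO, a 25.2-fold difference at DD10, and at most 1.13-fold later. Prl3b1, another placental lactogen, read 0.12, -2.15 and -2.75 and -2.71, -2.11 and -2.56. Adgrg3, Ush1c and Tfap2e were the other 3 of the 5 largest differences downward at DD10 outside the imprinted list, with differences of -3.41, -3.21 and -3.13 that were not repeated at DD23. In WT at DD10 Ush1c and Tfap2e read -1.64 and -1.59. At DD23 they were at least as high in both lines, -1.08 and -1.46 in WT and -1.27 and -1.14 in Isl1KO. A second Ush1c probe, well above background on 2 of the 6 arrays, differed by 0.68 at DD10. In the other direction Rrh, the opsin-like peropsin of pigment epithelium, was 4.61-fold, Cd8b1 4.58-fold, Slc13a5, a citrate transporter, 4.11-fold, and Fcer1g, a signalling chain of immune receptors, 3.75-fold higher. Another Slc13a5 probe, well above background on 2 of the 6 arrays, differed by -0.22 at DD10, and the remaining one was at background on every array. Cyp26a1, an enzyme that breaks down retinoic acid, was at least 6.47-fold higher at DD10, 2.33-fold at DD16 and lower at DD23 (-0.18).

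At DD16 the share of genes at least 2-fold lower, 0.907%, was below that at DD10 (1.72%) and DD23 (1.28%). The share at least 2-fold higher, 0.281%, was below that at DD10 (0.531%) and close to that at DD23 (0.279%). Zfp9 (8.61-fold), Mocos (6.68-fold), Xkr4 (6.22-fold), Sema3a and Aldh1a3 had the largest differences upward among genes under the same limits (an established symbol, outside the imprinted list, well above background on both arrays). A second Xkr4 probe, well above background on all 6 arrays, differed by 0.52 at DD16. Pcdhga1, a clustered protocadherin, Loxl3, a lysyl oxidase, and Ly6c1 differed by -2.90, -2.68 and -2.59 at DD16 and were within 2-fold on the other days. Frzb, a secreted Wnt antagonist, was 7.30 times lower at DD16 and higher at DD23 (0.73), but its second probe, well above background on 3 of the 6 arrays, read higher at DD16 (1.17). Cdrt4os1 was 7.68 times lower.

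**Figure D5:**
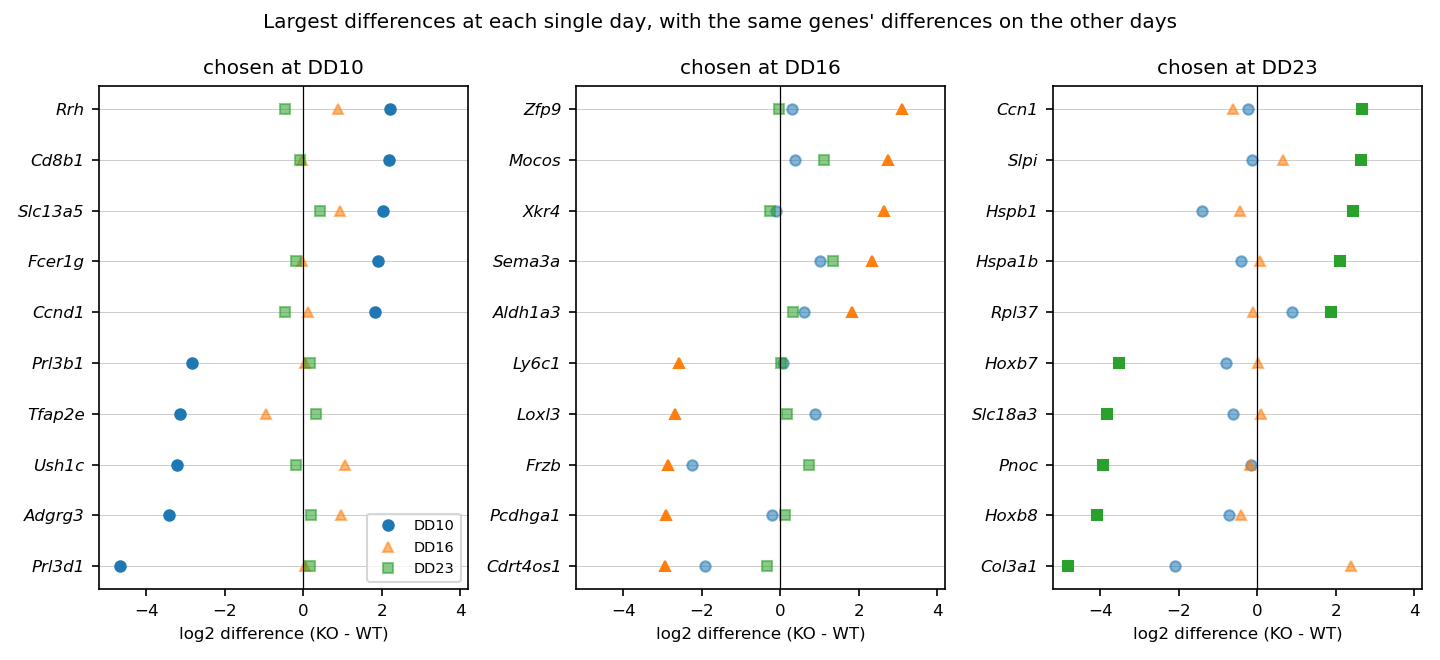
Log2 difference, Isl1KO minus WT (horizontal axes), of the 5 genes with the largest difference upward and the 5 with the largest downward at DD10 (left), DD16 (middle) and DD23 (right) among genes outside the imprinted list, with an established symbol, well above background on both arrays of that day; full-colour marks are the day of choice and paler marks the other days, where some values were not well above background. Zfp9, Xkr4, Cd8b1, Fcer1g and Prl3d1 lay near 0 on both other days, whereas Sema3a kept 1.01 and 1.35 beside 2.35 at DD16.

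Pigment cell genes were lower on average. All 20 tested had a mean below 0, though 5 of 20 measured were higher at DD10 and 4 of 18 at DD16 and at DD23. Of the 20, 10 were lower on all 3 days (14.8% of all genes) and 9 were lower at an unadjusted p under 0.05 (5.23%). The median of the 20 was -0.35. Tyr, tyrosinase, read -0.0067, -1.70 and -1.81 in WT and -0.40, -2.22 and -2.62 in Isl1KO. Dct, another melanosome enzyme, differed by -0.28, -0.43 and -0.66, so both differences were larger on each later day, and Mlana differed by -0.62 on average. Rdh5, a retinol dehydrogenase of pigment epithelium, differed by -0.44, -0.96 and -0.48, Mitf, a factor that drives pigment genes, by 0.016, -0.46 and -0.25 and Best1, of pigment epithelium, by -0.044 on average. Sox10, described above, is on this list too.

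Of 31 Wnt pathway genes, 18 were lower and 13 higher, 11 lower on all days (14.8% of all genes) and 7 lower at an unadjusted p under 0.05 (5.23%). Wnt3 (-1.09, -0.53 and -1.01), Wnt4 (-0.59, -0.51 and -0.62) and Rspo3 (-1.07, -0.41 and -0.94), ligands and a signal enhancer, were lower on every day. The retinoic acid list was higher for 12 of 16 genes, 5 of them on all days (16.9% of all genes) and 4 at an unadjusted p under 0.05 (3.3%). Crabp1, a retinoic acid carrier, differed by 0.97, 0.56 and 0.39 and Rarb, a receptor, by 0.32, 0.20 and 0.20. Of 12 lens genes 9 were higher on average, dim values included. Of those measured in both lines, 7 of 10 were higher at DD10, 5 of 8 at DD16 and 5 of 11 at DD23 (51.7, 47.7 and 51.5% of all genes measured). Their medians were 0.43, 0.050 and -0.023. Cryaa, a lens crystallin, differed by 0.90, 1.07 and 1.13 with 1 dim WT array (adjusted p = 0.27), while the lens gene Mip was at background on all arrays.

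Some genes were above background in 1 line only. Counted by each gene's brightest probe, 176 genes were well above background on all 3 Isl1KO arrays and on no WT array, and 2 the other way. The lowest signal that counted as well above background was -4.52, -4.22 and -4.98 on the WT arrays and -5.23, -5.15 and -5.40 on the Isl1KO arrays, lower on every day in Isl1KO; the part of this in the 2 counts was not tested. Once the dim values were raised to that level, only Vax2os kept a bound of 2-fold or more among genes with an established symbol; Zfp951 followed with at least 1.66-fold, Klhl31 with 1.63-fold and Pigl, of glycolipid anchor synthesis, with 1.44-fold. 1110006E14Rik, on chromosome 12, was at least 10.6-fold higher. In the other direction R3hdml read -3.75, -1.29 and -4.02 in WT and was at background in Isl1KO by its brightest probe, at least 4.72-fold lower; B4KO read -5.34, -5.88 and -6.10. Its second probe, well above background on 2 of the 6 arrays, differed by -0.084 on average.

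Set beside B4KO, which is compared with the same WT arrays, the leading genes read as follows. Sema3a differed from WT by -0.05 in B4KO, Vax2 by -0.61, Nefl by 0.18, Nell2 by -0.17 and Smim18 by -0.18, against 1.57, 0.94, -1.45, -1.14 and -1.04 in Isl1KO. Slc15a2 (-1.07), Nts (-0.71), Zic4 (-0.70) and Irx1 (-0.66) were below WT in both lines, and Clec4g was lower in B4KO (-2.16) than in Isl1KO. The B4KO arrays were on another slide, so slide and line cannot be told apart for these values.

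Isl1 is known to bind DNA that holds the letters CTAATG. Promoters from RefSeq (build GRCm38.p6), taken from 250 bases before to 50 bases after each start, were searched for CTAATG on both strands (CATTAG on the other); no other motif was searched. The letters stood in 7.36% of all 32851 promoters, or in at least 1 promoter of 8.49% of 27025 genes. Among the genes tested here, 13118 had a promoter, and 6.44% of those held the letters. Of the 15 genes ranked downward, 6 had a promoter in the table and 2 held the letters, Slc15a2 and Clec4g; of the 15 ranked upward, 11 had one and 0 held them. Of the ganglion cell differentiation genes, 18 had a promoter and 2 held the letters. The match in the Slc15a2 promoter is printed because that gene had the largest mean difference of the 15 ranked downward, with the matched letters in capitals.
Slc15a2, chr16:36785163-36785192, minus strand: acccccacatgcCATTAGaaatcagattca
A match is a description of these letters and shows no binding.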

How the data were processed

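RNA of pooled organoids was labelled with Cy3 and hybridised to 1-colour Agilent arrays. Per the file headers, the authors scanned each array with Agilent Feature Extraction 12.0.3.1, and the deposited intensity is a background-subtracted, detrended spot signal that is not normalized between arrays. The deposited value table holds the same signal divided by a constant for each array, a ratio tested here against the scanner values; it served as an alternative. No step after the scan is stated in the sources used here.

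Each array's processed signal was divided by its 75th percentile over gene spots and put on a log2 scale. Spots of one probe were averaged, 102 probes with outlier spots were left out, and of 56605 gene probes 33011 were named through RefSeq and 23594 by the name in the file. A gene was represented by its brightest probe among those that passed the scanner's background test on 3 or more arrays. limma 3.58.1 (R 4.3.3) fitted line and day, with each day as a pair (2 residual degrees of freedom), tests were two-sided, and p-values were adjusted by Benjamini and Hochberg's method with a threshold of 0.05. The fit was tested on simulated data. Nothing in the labels says that samples came from separate cultures, so p-values measure only the spread between these samples; the number of arrays limits the precision. At-least folds set a dim value to the lowest signal well above background on its array.

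The 47 gene lists and the genes described were chosen with earlier results of these data known. Genes were named by rule: Isl1 and Bhlhe23; genes past the threshold; the 15 each way, outside the imprinted list, with the largest least-different day; genes above background in 1 line only, by bound; up to 4 each way per list by moderated t; and the 5 largest each way on each day. Other list members named in the text were chosen after their values were seen. Some genes that the rule takes are not reported here. Alternatives were the arrays in the fit, the day term, quantile normalization, normexp background correction, the deposited values, the filter on dim probes, the probes of a gene, and each day left out.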

Additional observations from a re-analysis of the deposited data

How the results depend on the processing

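The number of genes past the threshold was 3 in the comparison as reported. It was 1 with all 9 arrays in the model, 0 without a day term (smallest adjusted p 0.125), 5 with normexp background correction, 0 of 37263 genes without the filter on dim probes (smallest adjusted p 0.0548), and from 0 to 6 with each day left out, being 6 without DD10, 0 without DD16 and 0 without DD23. The calls with normexp included Cdkn1c, H19, Meg3 and Mirg. Quantile normalization gave 4, the deposited values 3, genes above background on all 6 arrays 2 (Cdkn1c among them), the mean over probes 4 and single probes 3; all calls under every alternative were higher in Isl1KO. The count of genes at least 2-fold apart on every day, 10, became 24 to 46 with a day left out, when 2 days were needed in place of 3. Of 492 values of 46 named genes under the alternatives, 473 kept their direction and their side of the threshold and 1 turned its direction: Chrnb1, whose difference ran from -0.076 without DD23 (adjusted p = 0.92) to 0.47 without DD16; the cause was not tested. Of 423 medians of the 47 lists, 23 moved by more than the spread between the days. The median of the ganglion cell differentiation genes lay between -0.59 and -0.39. No fit with a replicate block was made because the labels give no replicate numbers; day pairs the arrays in the fit as reported. With 1 array for each line and day, a difference on 1 day and variation between pools of organoids cannot be told apart.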
